A study of Homo sapiens with 6 samples.

Results

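The mRNA levels of 10 genes were compared between Huh7 LR, a lenvatinib-resistant line, and Huh7 P, the human liver cancer (hepatocellular carcinoma) line from which it was derived. The genes were the receptors FGFR1, FGFR2, FGFR3 and FGFR4, the co-receptor KLB, the ligands FGF19 and FGF21, the adaptor FRS2 and the PDGF receptors PDGFRA and PDGFRB. They were chosen by name from the 26184 genes and loci of the count table, and the rule that chose them used no measured value, although earlier results of these data were known. Huh7 P cells were untreated and of wild-type genotype by their labels. Huh7 LR cells came from the same line after lenvatinib was raised from 1 μM to 20 μM over about 10 months, and were then kept in 20 μM. Poly(A) RNA of 3 samples per line was sequenced, and the samples are described as independent. All Huh7 LR samples came from 1 resistant line, so the p-values measure the spread between samples of that line and not between separately derived resistant lines. Whether lenvatinib was in the medium when RNA was taken is not stated. The effect of the drug itself and the effect of long selection therefore cannot be told apart.

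FGF19 is an endocrine fibroblast growth factor that normally passes from the intestine to the liver. There it binds FGFR4 together with β-Klotho, the KLB product, and lowers bile acid synthesis. FGF21, a second endocrine FGF that the liver makes during fasting and stress, also needs β-Klotho and acts mainly through FGFR1. Activated FGF receptors phosphorylate the adaptor FRS2, which recruits GRB2, SOS1 and SHP2 and switches on the RAS/MEK/ERK cascade. Some hepatocellular carcinomas make their own FGF19. Lenvatinib is a multikinase inhibitor of the FGF receptors, the VEGF receptors, PDGFRα, KIT and RET, so several of the genes described here encode its targets.

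The upstream sequences of FGFR4, FGFR3 and KLB are shown because these genes had the highest mRNA levels of the 10. FGFR4 and KLB encode the receptor complex of FGF19. They were taken from RefSeq on GRCh38.p14, in which 8 of the 10 genes matched, and are printed 5′ to 3′ on the plus strand up to the base before the annotated gene start. Capitals mark a GC box (GGGCGG on either strand).
FGFR4, chr5:177086665-177086885: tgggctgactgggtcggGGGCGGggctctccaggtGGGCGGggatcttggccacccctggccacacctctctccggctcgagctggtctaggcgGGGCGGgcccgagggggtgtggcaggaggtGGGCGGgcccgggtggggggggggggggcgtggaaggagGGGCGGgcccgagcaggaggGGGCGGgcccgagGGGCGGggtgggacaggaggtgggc
FGFR3, chr4:1793043-1793292: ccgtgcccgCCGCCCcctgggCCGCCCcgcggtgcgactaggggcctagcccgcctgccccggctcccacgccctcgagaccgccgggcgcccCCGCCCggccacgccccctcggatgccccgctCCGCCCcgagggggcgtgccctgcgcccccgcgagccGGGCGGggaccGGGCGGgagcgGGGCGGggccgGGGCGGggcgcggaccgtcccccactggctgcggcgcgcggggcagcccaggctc
KLB, chr4:39406680-39406852: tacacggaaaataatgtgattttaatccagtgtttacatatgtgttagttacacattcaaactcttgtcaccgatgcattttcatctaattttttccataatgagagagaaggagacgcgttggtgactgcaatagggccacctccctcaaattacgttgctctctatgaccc
The letters GGGCGG were found at 7 places upstream of FGFR4 and at 8 places upstream of FGFR3, and at 0 places upstream of KLB. Windows of 250 bases before 35116 RefSeq starts held this motif in 42.6% of cases. The 250-base window was 79.6% G or C with 24 CpG for FGFR4, 86.8% with 40 CpG for FGFR3 and 39.2% with 5 CpG for KLB, against a median of 58% and 11 CpG over all starts. KLB was thus A and T rich where both receptor genes were G and C rich. The TATA box TATAAA, the CCAAT box CCAAT, the letters GTTAAT and CAAAGT found in HNF1 and HNF4 sites, the E-box CACGTG and the TEAD motif GGAATG were found on neither strand of these 3 windows of 250 bases. RefSeq gives FGFR4 a further start downstream, whose window was 57.2% G or C with 2 CpG and 0 GC boxes. The gene-level counts do not show which start was used.

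The authors deposited read counts and FPKM (fragment counts scaled by transcript length and sequencing depth) for each gene and library. Totals were 62738937 to 71427573 counts in Huh7 P and 63233655 to 70768720 in Huh7 LR, so that 3 counts, the limit that a count of 0 allows, was 0.042 to 0.049 CPM. CPM is a read count divided by the library's depth after edgeR's TMM scaling, and this limit covers counting error only. Differences were tested with edgeR's quasi-likelihood test, with p-values adjusted by the Benjamini-Hochberg method over the 17531 genes and loci with enough counts. A gene was taken to differ at an adjusted p under 0.05, and to differ by more than 2-fold where the adjusted p was under 0.001 and the absolute log2 fold change above 1. Log2 fold changes are Huh7 LR over Huh7 P. The cells carried the hepatocyte markers of their label, with summed levels of 8 markers of 43498 to 52591 CPM in Huh7 P and 54989 to 58034 CPM in Huh7 LR, and 4 of the 8 were higher in Huh7 LR, where 23.3% of all genes and loci tested were higher and 22.4% lower.

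Of the 10 genes, 9 had enough counts to test. FGFR2, KLB and PDGFRB were higher in Huh7 LR, and FGFR1, FGFR4 and PDGFRA were lower. FGFR3, FGF19 and FRS2 did not pass the test. Against the 23.3% higher and 22.4% lower over all genes and loci tested, the 3 of 9 in each direction stand in a background in which many genes differed. The 2-fold criterion was met by FGFR1 and PDGFRA, both lower, where 4.43% of all genes tested were higher and 1.78% lower. All Huh7 LR libraries lay above all Huh7 P libraries for 3 of the 9 genes (28.2% of all genes tested) and below them for 4 (27.7%). The fourth of those was FGF19. The median log2 fold change was 0.013 over the 9 genes and 0.0046 over all genes tested. In bulk RNA, fewer cells that make a transcript and less of it per cell cannot be told apart.

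**Figure D1:**
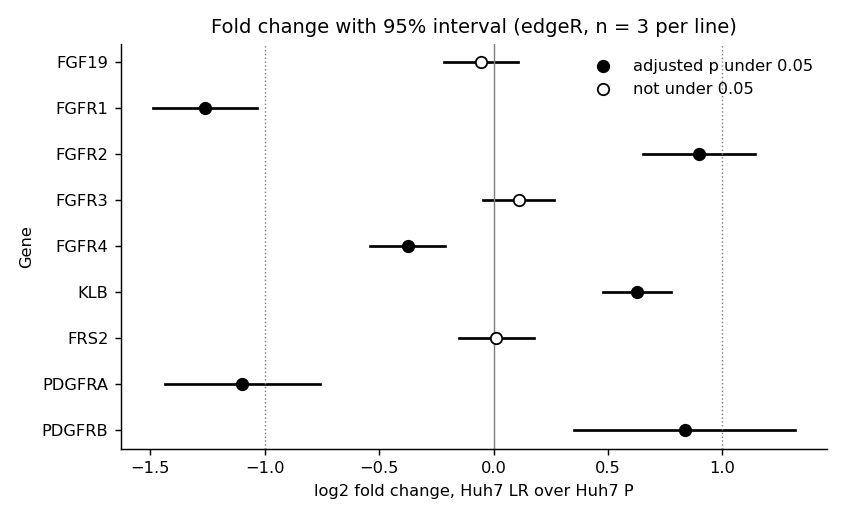
Log2 fold change of Huh7 LR over Huh7 P (horizontal axis) for the 9 tested genes, with 95% intervals from edgeR and 3 libraries per line. Filled points had an adjusted p under 0.05 and dotted lines mark 2-fold; FGFR1 (-1.26) and PDGFRA (-1.10) lie beyond the lower line, while FGF19, FGFR3 and FRS2 have intervals that include 0.

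On the FPKM scale, which allows levels of different genes to be set side by side, the 10 genes had the same order in both lines. In Huh7 P, FGFR4 was highest at a mean of 179 FPKM, followed by FGFR3 at 103, KLB at 28.3, FRS2 at 13.0, FGF19 at 9.57, FGFR2 at 2.78, FGFR1 at 2.24, PDGFRA at 0.908, PDGFRB at 0.129 and FGF21 at 0.0097. In Huh7 LR, FGFR4 was again highest at 137 FPKM, followed by FGFR3 at 114, KLB at 44.6, FRS2 at 14.5, FGF19 at 9.39, FGFR2 at 4.99, FGFR1 at 0.973, PDGFRA at 0.416, PDGFRB at 0.235 and FGF21 at 0.067. On this scale, ranges of neighbours in the order did not overlap in either line. The order depends on the length scaling. With CPM divided by the GENCODE exon length instead, FGF19 stood above FRS2 in both lines, FGFR4 overlapped FGFR3 in Huh7 LR, and FGFR2 overlapped FGFR1 in Huh7 P. FGFR4 and KLB, which encode the FGF19 receptor complex, were the first and the third of these mRNAs, and the PDGF receptors were among the least abundant.

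**Figure D2:**
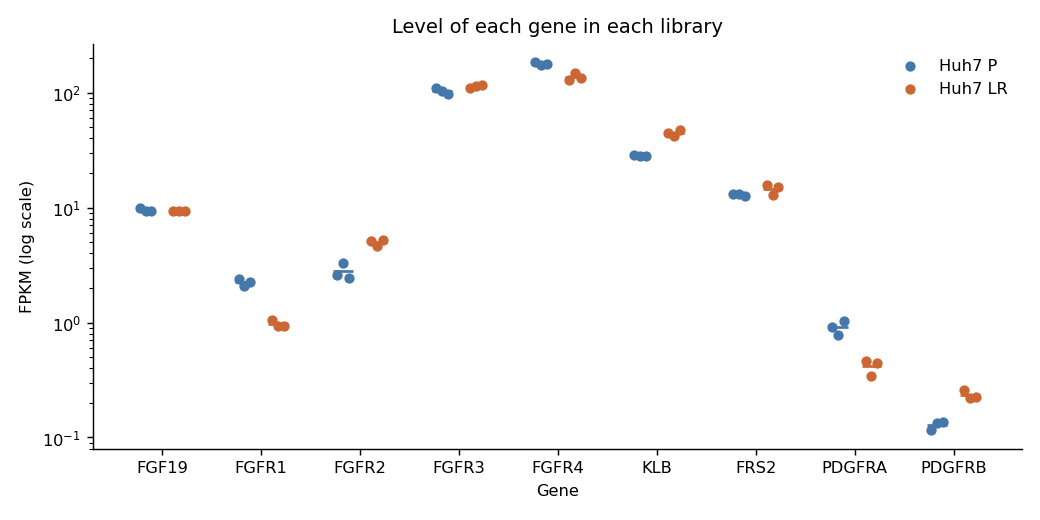
FPKM of 9 genes in each of the 6 libraries, on a logarithmic vertical axis, with 1 point per library and a short line at the mean. FGFR4 and FGFR3 lie at the top in both lines, FGFR1 and PDGFRA are lower in Huh7 LR, and FGF21, listed at 0 in 3 libraries, is not drawn.

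FGFR4, the receptor through which FGF19 acts on hepatocytes, lies at chr5:177086886-177098144 on the plus strand (GENCODE release 29, GRCh38, as for the gene positions that follow). Its levels were 547, 527 and 551 CPM in the Huh7 P libraries and 394, 456 and 403 CPM in the Huh7 LR libraries. Every Huh7 LR library was below every Huh7 P library. The mean fell from 542 ± 12.6 to 418 ± 33.6 CPM (SD, n = 3 per line), which is 1.30-fold lower. On the log2 scale the change was -0.37 (SE 0.07, 95% interval -0.54 to -0.21) with an adjusted p of 0.00186 from edgeR.

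FGFR3, at chr4:1793293-1808872 on the plus strand, encodes a receptor that was nearly as abundant as FGFR4 in Huh7 LR. Its levels were 386, 379 and 363 CPM in Huh7 P and 379, 423 and 414 CPM in Huh7 LR. The 2 lines overlapped through the first Huh7 LR library. The means were 376 ± 12.0 and 405 ± 23.1 CPM (SD, n = 3 per line). The log2 fold change was 0.11 (SE 0.07) with an adjusted p of 0.228 by edgeR, and its interval of -0.04 to 0.26 leaves room for a change in either direction.

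FGFR2, at chr10:121478334-121598458 on the minus strand, was a minor receptor here, and its splice forms differ in the FGFs they bind. Its levels were 7.54, 9.03 and 7.42 CPM in Huh7 P and 15.2, 14.1 and 15.3 CPM in Huh7 LR. The lines were well apart, and the mean rose from 7.99 ± 0.896 to 14.9 ± 0.673 CPM (SD, n = 3 per line). The change was 1.86-fold, with a log2 value of 0.90 (SE 0.11, 95% interval 0.65 to 1.14) and an adjusted p of 7.9e-05 from edgeR. The gene-level counts do not separate its splice forms.

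FGFR1, at chr8:38400215-38468834 on the minus strand, is the main receptor for FGF21 and for many paracrine FGFs. Its levels were 14.0, 12.7 and 13.7 CPM in Huh7 P and 5.62, 5.58 and 5.72 CPM in Huh7 LR. The Huh7 LR libraries lay close together and far below all Huh7 P libraries. The mean fell from 13.5 ± 0.704 to 5.64 ± 0.0705 CPM (SD, n = 3 per line), or 2.39-fold. This is a log2 fold change of -1.26 (SE 0.10, 95% interval -1.49 to -1.03) with an adjusted p of 5.04e-06 from edgeR. On the opposite strand, LETM2 overlaps 0.997% of the FGFR1 exon bases, and reads there could not be assigned by strand because the library kit named in the labels does not mark it. FGFR1 met the 2-fold criterion in 14 of 15 other settings and missed it on log2(FPKM + 1), with a log2 fold change of -0.72. The 14 include the setting with overlapping genes summed, which left the FGFR1 value unchanged.

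Because FGFR1 fell while FGFR2 rose, the balance of the 2 minor receptors differed between the lines. The FPKM of FGFR2 divided by that of FGFR1 was 1.08, 1.57 and 1.10 in Huh7 P, against 4.86, 4.98 and 5.59 in Huh7 LR. FGFR4 made up 61.6%, 61.6% and 63.8% of the summed FPKM of the 4 receptors in Huh7 P, against 52.5%, 55.4% and 52.0% in Huh7 LR. The mean share of FGFR4 was 62.3% ± 1.28 in Huh7 P and 53.3% ± 1.82 in Huh7 LR (SD, n = 3 per line), with no overlap. FGFR3 took 36.0% of the sum in Huh7 P and 44.4% in Huh7 LR, FGFR2 0.970% and 1.94%, and FGFR1 0.781% and 0.379%. The summed FPKM of the receptors was 287 ± 9.46 in Huh7 P and 258 ± 12.2 in Huh7 LR. By CPM per exon length, FGFR4 made up 58.1%, 57.7% and 59.8% in Huh7 P, against 50.3%, 51.4% and 48.7% in Huh7 LR, and in the third Huh7 LR library FGFR3 was above it at 49.9%. For each of the FPKM quantities the exact permutation test (two-sided) gave p = 0.1, the smallest value possible with 3 libraries against 3, so that none can pass 0.05.

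**Figure D3:**
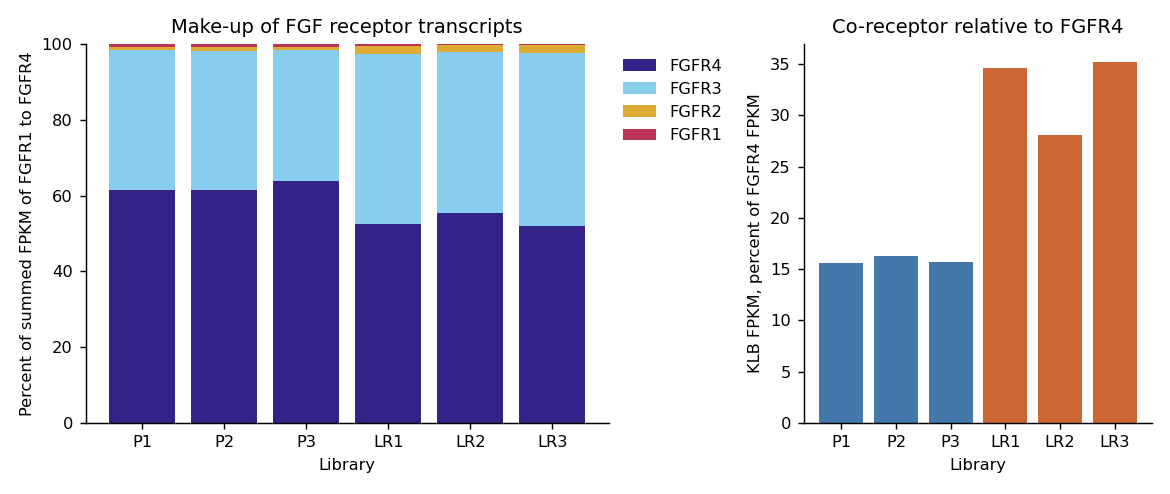
Share of each receptor in the summed FPKM of FGFR1 to FGFR4 by library (stacked bars, percent) and KLB FPKM as a percent of FGFR4 FPKM (second panel). On this FPKM scale FGFR4 has the largest share in every library (by CPM per exon length, in all but the third Huh7 LR library), at 61.6% to 63.8% in Huh7 P and 52.0% to 55.4% in Huh7 LR, and the KLB value is higher in all Huh7 LR libraries.

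KLB, at chr4:39406853-39451536 on the plus strand, encodes β-Klotho, the co-receptor without which FGF19 and FGF21 bind their receptors poorly. Its levels were 188, 188 and 187 CPM in Huh7 P and 287, 275 and 307 CPM in Huh7 LR. The Huh7 P libraries were nearly equal, and every Huh7 LR library was above them. The mean rose from 188 ± 0.489 to 289.6 ± 16.0 CPM (SD, n = 3 per line), or 1.54-fold. Its log2 fold change was 0.63 (SE 0.07, 95% interval 0.48 to 0.77) with an adjusted p of 3.3e-05 from edgeR. Relative to FGFR4, KLB FPKM was 15.6%, 16.3% and 15.6% in Huh7 P, against 34.6%, 28.1% and 35.2% in Huh7 LR. By CPM per exon length these values were 27.3%, 28.3% and 27.0%, against 57.8%, 47.8% and 60.4%, so the level depends on the length used while the Huh7 LR libraries were higher on both scales. The related co-receptor gene KL, which serves FGF23, had 0 counts in every library except the third Huh7 LR library, which had 6. FGFRL1, a receptor-like protein without a kinase domain, did not pass the test, with a log2 fold change of 0.06 and an adjusted p of 0.551 from edgeR.

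FGF19, the ligand, lies at chr11:69698232-69704642 on the minus strand and was expressed by the tumour cells themselves in both lines. Its levels were 26.4, 24.9 and 25.2 CPM in Huh7 P and 24.4, 24.7 and 24.6 CPM in Huh7 LR. All Huh7 LR libraries were below all Huh7 P libraries, but by little. The means were 25.5 ± 0.785 and 24.6 ± 0.165 CPM (SD, n = 3 per line). The log2 fold change was -0.05 (SE 0.07) with an adjusted p of 0.586 by edgeR, and the interval of -0.22 to 0.11 gives the range of changes that these libraries allow.

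FGF21, at chr19:48755559-48758333 on the plus strand, was counted 3, 0 and 0 times in the Huh7 P libraries and 9, 7 and 0 times in the Huh7 LR libraries. It was too low for the edgeR filter. Its level differed by 0.0654 CPM between the lines, with p = 0.4 by a two-sided exact permutation test. With 3 libraries against 3 that test cannot give less than 0.1, so it could not decide whether the level differed. The 11 genes listed as regulators of FGF21 were all tested, of which 4 were higher, 3 were lower and 4 did not pass, against 23.3% higher and 22.4% lower over all genes tested, with a median log2 fold change of 0.08. MLXIPL, the carbohydrate response factor ChREBP, rose from 27.9 to 79.5 CPM with a log2 fold change of 1.51 and an adjusted p of 2.84e-06 from edgeR. RORA (1.38), NR1D1 (0.46) and DDIT3 (1.07), which encodes the stress factor CHOP, were also higher on the log2 scale. Of the DDIT3 exon bases, 27.2% overlap MARS and 4.44% overlap MBD6 on the opposite strand, and AC022506.1 shares 8.03% on the same strand. THRA overlaps 9.49% of the NR1D1 exon bases on the opposite strand. The lower genes were NFE2L2 (-0.42), ATF4 (-0.23) and CREB3L3 (-0.19). PPARA, the fasting receptor that drives FGF21 in liver, had a log2 fold change of 0.08 and an adjusted p of 0.528 by edgeR.

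Of the 22 FGF genes that were looked up, 9 were tested and 9 had 0 counts in all libraries. Among the tested genes 2 were higher, 2 lower and 5 did not pass, against 23.3% higher and 22.4% lower over all genes tested, with a median log2 fold change of -0.10, which is the same with FGF9 at its ratio of counts. FGF12, which encodes an intracellular FGF that is not secreted, was counted 11, 0 and 0 times in the Huh7 P libraries and 124, 169 and 185 times in the Huh7 LR libraries. It was higher with an adjusted p of 7.3e-05 from edgeR, but its parental level rests on the first Huh7 P library. Scaled for library size, its summed counts of 11 and 478 were 42.5-fold higher in Huh7 LR, with a counting interval of 23.5 to 85.6 that leaves out the spread between samples. Without that library the level was at least 48.2-fold higher, computed against 3 counts per library. FGF9, a secreted ligand of FGFR3 among others, was counted 30, 31 and 29 times in the Huh7 P libraries and 2, 0 and 2 times in the Huh7 LR libraries. Scaled for library size, its summed counts of 90 and 4 were 23.0-fold lower in Huh7 LR, with a counting interval of 8.69 to 86.3 that leaves out the spread between samples. FGF18 was lower (log2 fold change -1.71, adjusted p 0.0105) and FGF23, the bone hormone that acts with KL, was higher (0.80, adjusted p 0.00999) by edgeR. FGF2, the paracrine ligand of several receptors, was at 12.5 CPM in Huh7 P and 11.3 CPM in Huh7 LR and did not pass with an adjusted p of 0.297. NUDT6 on the opposite strand overlaps 11.9% of its exon bases. FGF11, also intracellular, was at 14.0 and 13.1 CPM and did not pass with an adjusted p of 0.649.

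FRS2, at chr12:69470349-69579789 on the plus strand, encodes the membrane adaptor that links FGF receptors to GRB2 and SHP2. Its levels were 55.4, 55.2 and 58.6 CPM in Huh7 P and 58.7, 52.1 and 59.8 CPM in Huh7 LR, with overlap between the lines. The log2 fold change was 0.01 (SE 0.07, 95% interval -0.15 to 0.18) with an adjusted p of 0.904 by edgeR. With FRS2, 9 adaptor and relay genes were tested, and 3 were higher, 4 lower and 2 did not pass, against 23.3% higher and 22.4% lower over all genes tested, with a median log2 fold change of -0.12. PLCG1, which encodes phospholipase Cγ1 and binds the receptors directly, rose from 113 ± 1.57 to 185 ± 11.3 CPM (SD, n = 3 per line) with a log2 fold change of 0.71 and an adjusted p of 1.7e-05 from edgeR. PTPN11, the gene of SHP2, fell from 324 to 261 CPM (-0.31, adjusted p 0.00489). GAB1 (-0.32), SHC1 (-0.26) and SOS1 (-0.25) were also lower on the log2 scale, while FRS3 (0.53) and GRB2 (0.20) were higher. PYGO2 shares 7.72% of the SHC1 exon bases.

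A list of 13 genes held inhibitors that feed back on FGF receptor signalling and ETS factors, many of them known to be induced by ERK signalling. Of these, 1 was higher, 7 were lower and 5 did not pass (23.3% higher and 22.4% lower over all genes tested), with a median log2 fold change of -0.43 against 0.0046 over all genes. SPRY2, a Sprouty inhibitor of receptor tyrosine kinase signalling, was at 86.6, 92.8 and 85.7 CPM in Huh7 P and 47.3, 38.5 and 37.2 CPM in Huh7 LR. With a log2 fold change of -1.11 (SE 0.09, adjusted p 5.9e-06, edgeR) it was the 1 gene of the list past 2-fold. DUSP6, the ERK phosphatase, was at 153, 149 and 166 CPM in Huh7 P and 102, 67.8 and 71.5 CPM in Huh7 LR, with a log2 fold change of -0.96 and an adjusted p of 1.65e-04. SPRY4 (-0.99), the ETS factors ETV5 (-0.85) and ETV4 (-0.61), SPRED1 (-0.70) and SPRY1 (-0.43) were lower on the log2 scale. DUSP4, another MAP kinase phosphatase, was higher (0.89, adjusted p 2.94e-05). For all 13 genes of the list, whatever their direction, the first Huh7 LR library had the highest level of the 3 Huh7 LR libraries, as it did for 36.3% of all genes tested. Without that library 1 gene of the list was higher and 8 were lower, with a median log2 fold change of -0.58. DGKG shares 2.83% of the ETV5 exon bases. Such genes respond to other receptors that activate ERK as well, and phosphorylation was not analysed here. By western blotting, the paper reported more phosphorylated EGFR, MEK and ERK in Huh7 LR than in Huh7 P. How that protein result relates to these mRNA levels was not tested.

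**Figure D4:**
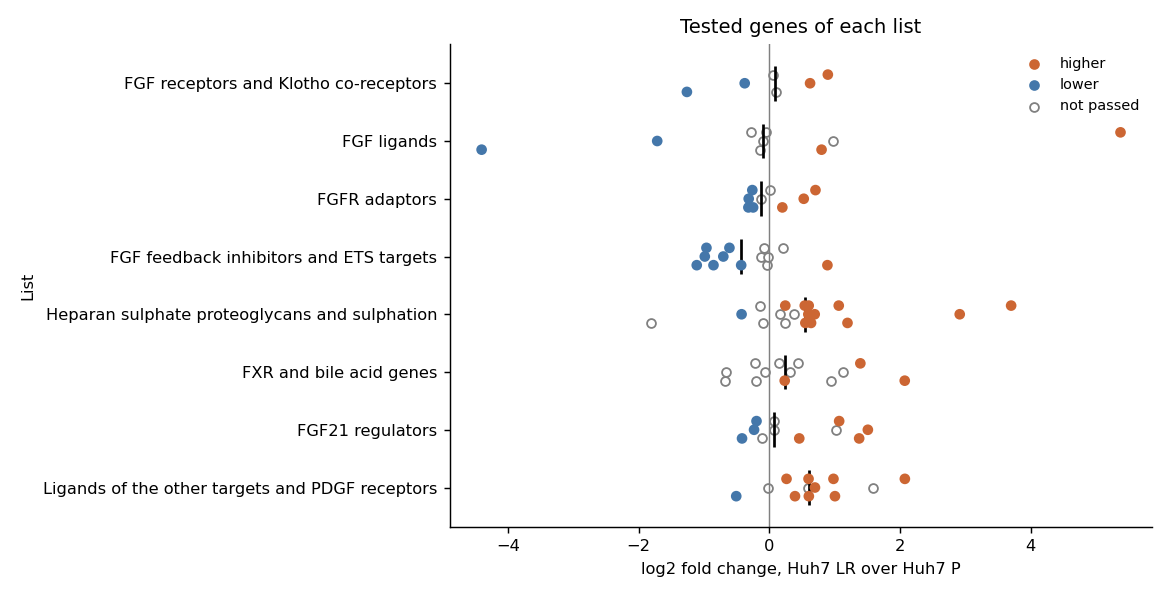
Log2 fold change of Huh7 LR over Huh7 P for the tested genes of 8 gene lists, with 1 point per gene, coloured where the adjusted p was under 0.05, and a black bar at the median. Feedback inhibitors and ETS targets have a median of -0.43 and heparan sulphate genes a median of 0.55; the FGF9 and FGF12 points at the far left and right are fitted values that rest on 4 counts in Huh7 LR and 11 counts in Huh7 P.

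Heparan sulphate chains on cell-surface proteoglycans hold FGFs at their receptors, with KLB taking over part of this role for FGF19. Of 22 such genes that were looked up, 18 were tested, and 11 were higher, 1 was lower and 6 did not pass (23.3% and 22.4% over all genes tested were higher and lower), with a median log2 fold change of 0.55. GPC3, the glypican that is used as a hepatocellular carcinoma marker, rose from 674 ± 6.49 to 1547 ± 12.3 CPM (SD, n = 3 per line), or 1.20 on the log2 scale, with an adjusted p of 2.71e-07 from edgeR. The glypican gene GPC4 was also higher (2.92, adjusted p 0.00835) from 4, 0 and 6 counts in the parental and 13, 43 and 24 counts in the resistant libraries. GPC5, another glypican, went from 15, 12 and 11 counts to 104, 180 and 229 counts per library (log2 fold change 3.70). EXT2, a subunit of the chain polymerase, rose from 14.6 to 30.6 CPM (1.06). The sulphotransferase genes NDST1 (0.64) and HS6ST1 (0.55) were higher on the log2 scale, and HS6ST2 (-0.42) was the 1 lower gene. Among the 11 was NDST2, whose count is uncertain because AC022400.6 shares 82.9% of its exon bases on the same strand.

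In hepatocytes FGF19 lowers CYP7A1, the rate-limiting enzyme of bile acid synthesis, and FGF19 itself is a target of the bile acid receptor FXR, encoded by NR1H4. Of 16 genes of this group, 13 were tested, and 3 were higher, 0 were lower and 10 did not pass by edgeR, against 23.3% higher and 22.4% lower over all genes tested, with a median log2 fold change of 0.24. At an unadjusted p under 0.05, 5 were higher and 2 lower. DESeq2 gave 5 higher and 0 lower of 15, and limma on FPKM gave 2 higher and 1 lower of 8. CYP7A1 had 0 counts in all Huh7 P libraries and 4, 2 and 13 in Huh7 LR, too few for the edgeR filter. CYP8B1, the sterol 12-hydroxylase, was higher with a log2 fold change of 2.07 and an adjusted p of 0.0133 by edgeR, from 4, 6 and 2 counts in the parental and 20, 14 and 19 counts in the resistant libraries, and ACKR2 overlaps 3.20% of its exon bases on the opposite strand. The bile acid importer SLC10A1 (1.40) and the nuclear receptor NR5A2 (0.24) were higher on the log2 scale. SLC10A1 was low, at 24, 13 and 7 counts in the parental and 38, 52 and 28 counts in the resistant libraries. NR1H4 was at 34.8 CPM in Huh7 P and 30.4 CPM in Huh7 LR and did not pass (-0.20, adjusted p 0.104). Its target NR0B2, which encodes the repressor SHP, had a log2 fold change of -0.68 with an adjusted p of 0.0523.

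PDGFRA, the PDGF receptor that lenvatinib inhibits, lies at chr4:54229097-54298247 on the plus strand. Its levels were 6.34, 5.58 and 6.82 CPM in Huh7 P and 3.21, 2.43 and 3.12 CPM in Huh7 LR, with no overlap between the lines. The mean fell from 6.25 ± 0.628 to 2.92 ± 0.428 CPM (SD, n = 3 per line), or 2.14-fold. The log2 fold change was -1.10 (SE 0.15, 95% interval -1.44 to -0.76) with an adjusted p of 1.92e-04 from edgeR. The gene AC058822.1 shares 15.8% of the PDGFRA exon bases on the same strand, but had 0 counts in all 6 libraries, so that summing both genes left every value as it was. PDGFRA stayed past the 2-fold criterion in 9 of 15 other settings, including this unchanged sum. It missed that criterion without the first (adjusted p 0.00151) or the third (0.00173) Huh7 P library, without the second (log2 fold change -0.97) or the third (adjusted p 0.00108) Huh7 LR library, and in both fits of FPKM, and was lower at an adjusted p under 0.05 in all 15.

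PDGFRB, at chr5:150113837-150155872 on the minus strand, moved the other way from a lower level. Its levels were 0.711, 0.843 and 0.872 CPM in Huh7 P and 1.56, 1.37 and 1.39 CPM in Huh7 LR, at 51 to 57 counts and 95 to 102 counts per library. The mean rose from 0.808 ± 0.0859 to 1.44 ± 0.107 CPM (SD, n = 3 per line), or 1.78-fold, with a log2 fold change of 0.84 (SE 0.22, 95% interval 0.35 to 1.32) and an adjusted p of 0.00953 from edgeR. In tissue PDGFRB marks stellate cells and fibroblasts. Of 7 fibroblast and stellate markers, 2 had enough counts to test, and DCN and THY1 were at 0 in every library. The summed level of the list was 1.43 to 1.62 CPM in Huh7 P and 3.75 to 6.66 CPM in Huh7 LR, mostly COL1A1, which was at 1.28 and 4.59 CPM. Its part in the PDGFRB result was not tested.

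The remaining lenvatinib targets were hardly seen. FLT1, KDR and RET had 0 counts in every library, FLT4 had 2 counts in the second Huh7 LR library alone, and KIT had 3 and 2 counts in the first and the second Huh7 LR libraries and 0 elsewhere. The VEGF receptors, KIT and RET thus lay at or under the 3 counts that a count of 0 allows, and the FGF receptors and PDGFRA were the lenvatinib targets with measurable mRNA. The endothelial markers CDH5, TEK and EMCN were at 0 in every library, while the other markers of the list, PECAM1 and VWF, were tested and both higher. PECAM1 was at 44.0 CPM in Huh7 P and 68.7 CPM in Huh7 LR (log2 fold change 0.64, adjusted p 1.35e-04, edgeR). VWF was counted 0, 0 and 8 times in the Huh7 P libraries and 19, 26 and 21 times in the Huh7 LR libraries (adjusted p 0.0179). The part of endothelial transcripts in these results was not tested. Of 14 ligands of these receptors and the PDGF receptors, 12 were tested, and 8 were higher, 1 was lower and 3 did not pass (23.3% and 22.4% over all genes tested were higher and lower), with a median log2 fold change of 0.60. PDGFA, a ligand of PDGFRα, rose from 16.5 ± 1.39 to 33.1 ± 2.31 CPM (SD, n = 3 per line), with a log2 fold change of 1.01 and an adjusted p of 9.92e-06 from edgeR. PDGFC (0.60) and VEGFA (0.61), the main angiogenic ligand, were also higher on the log2 scale, as was GDNF (2.08), a ligand of the RET complex with 7 to 10 counts in Huh7 P. NRTN (0.98) and PSPN (0.70), which encode further ligands of the RET complex, were higher on the same scale. KITLG, the ligand of KIT, was lower (-0.50).

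The genes whose profile over the 6 libraries was most like that of FGFR4 were MRPL22, BANF1 and CCDC51, at a root mean square distance of 0.019 to 0.024 between centred log2 CPM, among 12292 annotated genes with a mean of at least 1 CPM. For KLB they were PCNX2, SLC47A1 and MYO5C at 0.029 to 0.038, and for FGF19 they were LRP5, SH2B1 and TSC1 at 0.018 to 0.020. Genes near FGF19, KLB, FGFR4 and PDGFRA were counted against the 23.3% higher and 22.4% lower over all genes tested. Within 1 Mb on each side of KLB, 3 of 16 tested genes were higher and 6 were lower, with a median log2 fold change of -0.20, opposite in sign to KLB. The 3 higher genes, KLHL5 (0.72), FAM114A1 (0.68) and SMIM14 (0.66), had log2 fold changes close to that of KLB (0.63). Around FGFR4 6 of 31 were higher and 6 were lower, with a median of 0.0072. Around PDGFRA 4 genes were tested, of which CHIC2 was higher (0.52) and FIP1L1 lower (-0.28). Around FGF19 4 of 15 were higher and 1 was lower, with a median of 0.09. CCND1, the cyclin D1 gene that is often amplified together with FGF19, was at 442 CPM in Huh7 P and 469 CPM in Huh7 LR, with an adjusted p of 0.306 by edgeR.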

How the data were processed

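Total RNA of 3 Huh7 P and 3 Huh7 LR samples was poly(A)-selected and made into NEBNext Ultra libraries. The authors deposited 1 table with raw read counts per gene and FPKM values, already scaled for transcript length and library size. The submitters' processing notes name TopHat2, Cufflinks, DESeq and the mouse build mm10, and the labels describe extraction from an insect, whereas all 19974 annotated identifiers are human genes of GENCODE release 29. The alignment and counting settings, including strand, are not given in the sources used here. A further 34 lines that name no gene were left out.

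Counts were fitted in R 4.3.3 with edgeR 4.0.16 (filterByExpr, minimum count 10 and minimum total 15, TMM, quasi-likelihood test), which left 17531 genes and loci. The biological coefficient of variation was 12.7%. Standard errors were derived from the fold change and the F statistic. Replicates of each line differed by more than sampling noise, so none was counted as a duplicate. Exact permutation tests were used for single values. Scripts were tested on simulated data. The genes and lists were chosen, and the motifs searched, with earlier results of these data known. Named besides the 10 genes were, of each list, at most 4 genes past the test with the largest changes and those of at least 10 CPM that bind one of the 10, with other genes, such as NDST1, HS6ST1, HS6ST2 and VEGFA, chosen after their values were seen. Alternatives were DESeq2 1.42.0 (size factors, Wald test), library totals, no filter, at least 10 counts in all libraries, a replicate block, limma 3.58.1 with trend on log2(FPKM + 0.1) or on log2(FPKM + 1), where 3 or more libraries had 0.5 FPKM or more, summed overlapping genes, and each library left out. The exact test of FGF21, the count ratio of FGF12, levels as CPM per exon length and the counts of 3 lists under other settings were added after seeing the data.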

Additional observations from a re-analysis of the deposited data

How the results depend on the processing

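The setting with overlapping genes summed could only repeat the main fit, because the gene added to PDGFRA had 0 counts in every library. With it included, the 9 tested genes gave 133 values under the alternative settings. Of these, 130 kept their direction and their side of the adjusted p of 0.05. The others were FRS2, whose log2 fold change near 0 changed sign to -0.0018 without the first Huh7 P library, -0.011 without the first Huh7 LR library and -0.025 without the third, over a range of -0.025 to 0.080 with 1 library left out. FGFR4 ranged from -0.43 to -0.34, KLB from 0.58 to 0.67, FGFR1 from -1.30 to -0.72, FGFR2 from 0.67 to 1.00, PDGFRA from -1.17 to -0.43 and FGF19 from -0.067 to -0.021, with the smallest sizes of FGFR1 and PDGFRA on log2(FPKM + 1), which compresses low genes. PDGFRB ranged from 0.75 to 0.89 and was below the level needed for both FPKM fits. The FGFR4 share differed by -10.1 to -8.28 percentage points with 1 library left out and by -8.39 with counts per exon length. Without a filter FGF21 had a log2 fold change of 2.31 (SE 1.71, adjusted p 0.337, edgeR). Genes called past 2-fold over the whole table numbered 776 higher and 312 lower, 589 and 212 with limma on log2(FPKM + 0.1) and 268 and 84 on log2(FPKM + 1), fits that also changed the measure, the test and the filter, and the cause was not tested. The counts were 551 to 734 and 224 to 341 with 1 library left out. A replicate block gave 783 higher and 316 lower, with 3 of the 9 genes in each direction, and changed no call among them. Same-numbered samples deviated together with correlations of 0.037, 0.072 and 0.082 across genes, so they were taken to share only a number, although each correlated best with its own number. FGF21, KL, CYP7A1, KIT and FLT4 were too low at this depth for the edgeR filter.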
